A study of Mus musculus with 12 samples.

Results

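The smooth muscle contractile genes are 10 genes of the actin, tropomyosin, calponin, transgelin and myosin families (Acta2, Acta1, Actg2, Tagln, Cnn1, Cnn2, Myh11, Myl9, Tpm1 and Tpm2), taken by gene name from a count table of 56748 genes, where each name had 1 row. A filter on low counts kept 9 of the 10 among 16465 genes tested, and Tagln did not pass it. RNA came from 10T1/2 cells (C3H10T1/2), an established wild-type mouse mesenchymal line that the sample labels call mesenchymal stem cells, and from no other cell type or animal. All cells spent 1 h in suspension and then 18 h on hydrogels of 12 kPa that carried type I collagen (0.05 mg/ml). The col1 group had this collagen alone, the col1-ACLP group had recombinant aortic carboxypeptidase-like protein (ACLP, a secreted collagen-binding protein) at 30 nM during collagen polymerization, and the col1-ACLP+SB group had the same ACLP plus 5 µM SB431542, an inhibitor of the TGFβ receptor kinase ALK5. Each group had 4 libraries, and no group received the inhibitor on collagen without ACLP, so the inhibitor comparisons hold only for cells on ACLP.

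Smooth muscle contracts when myosin pulls on actin filaments. Tropomyosin lies along the filament and controls where myosin can bind, calponin and transgelin bind and stabilize the filament, and phosphorylation of the regulatory light chain by myosin light chain kinase switches the motor on. In fibroblasts the α-smooth muscle actin encoded by Acta2 is the usual marker of the myofibroblast state, while smooth muscle myosin heavy chain (Myh11) and Cnn1 mark differentiated smooth muscle. Many of these genes are known targets of serum response factor (SRF), which binds the CArG box together with either myocardin or the actin-regulated cofactors Mrtfa and Mrtfb.

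The start sites of these genes are shown because SRF binding to CArG boxes is the best known route to their transcription. RefSeq start-site windows of 300 bases, 250 before and 50 after the start, were at hand for 7 of the 10 genes, and each of the 7 occurred once in the GRCm39 genome. Actg2, Tagln and Myh11 had no window. A CArG box was searched as CC, then 6 bases that are each A or T, then GG, a pattern that reads alike on both strands. A CArG-like sequence had 1 G or C among those 6 inner bases and was counted apart, so the counts do not overlap. The 250 bases before the start of Acta2 (GRCm39, chr19:34232774-34233023, minus strand) and of Acta1 (chr8:124621515-124621764, minus strand) follow 5′ to 3′, with CArG and CArG-like sequences in capitals. The RefSeq start of Acta2 lies inside the gene span of the count table, so most of these bases are within the annotated gene, while those of Acta1 lie before its span.
Acta2: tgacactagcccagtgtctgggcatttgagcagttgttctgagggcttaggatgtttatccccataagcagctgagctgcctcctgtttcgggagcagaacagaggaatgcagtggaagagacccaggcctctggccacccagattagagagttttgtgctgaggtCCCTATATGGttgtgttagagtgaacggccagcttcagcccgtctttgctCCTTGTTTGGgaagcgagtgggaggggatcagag
Acta1: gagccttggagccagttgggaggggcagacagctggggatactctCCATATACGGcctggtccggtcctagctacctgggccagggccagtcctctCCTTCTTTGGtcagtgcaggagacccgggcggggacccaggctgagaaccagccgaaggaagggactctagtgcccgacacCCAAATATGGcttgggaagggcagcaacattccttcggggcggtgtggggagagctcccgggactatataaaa
Stretches of 30 bases around the matches of Cnn2 (chr10:79824368-79824397, plus strand) and Myl9 (chr2:156617213-156617242 and chr2:156617275-156617304, plus strand) are given with the same capitals.
Cnn2: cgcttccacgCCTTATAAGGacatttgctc
Myl9, distal: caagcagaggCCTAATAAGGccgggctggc
Myl9, proximal: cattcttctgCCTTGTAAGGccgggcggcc

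A CArG box was present in 3 of the 7 windows (Acta1, Cnn2 and Myl9), against 1.63% of 32851 RefSeq windows of the same length. Acta2 held no exact box and 2 CArG-like sequences, which began 84 and 34 bases before the start. CArG-like sequences were present in 3 of the 7 windows (Acta2, Acta1 and Myl9), against 8.5% of all windows. The Cnn1, Tpm1 and Tpm2 windows held neither kind. The RefSeq starts of Tpm1 and Tpm2 lie inside their gene spans too, so most bases of these windows are within the annotated genes. The MCAT motif CATTCC of TEAD factors, searched on both strands, was present in 3 of the 7 (Acta2, Acta1 and Tpm1), against 14.7% of all windows. Of the genes with an exact box, Acta1 rose on ACLP in the results that follow, and Cnn2 and Myl9 did not pass the test. These are matches of letters, not measured binding.

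**Figure D1:**
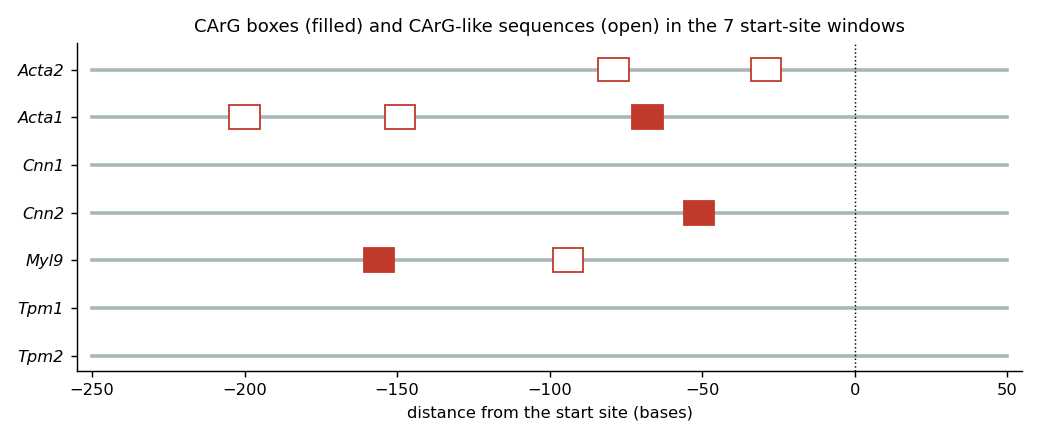
Positions of exact CArG boxes (filled) and CArG-like sequences (open) in the 7 start-site windows, with the distance from the start site in bases on the x axis and the start site as a dotted line. Acta2 carries 2 open symbols that begin 84 and 34 bases before the start, and the lines of Cnn1, Tpm1 and Tpm2 are empty.

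Library totals ran from 29246154 to 52201922 counts, with a median of 34120855. No pair of replicates agreed within counting noise (chi-square over its degrees of freedom 7.22 at the lowest and 19.5 at the highest), and each library was counted as 1 sample. The study calls these biological replicates, and the labels do not say how cultures were kept apart, so p-values measure the spread between these samples. In a principal component analysis, col1 replicate 2 stood apart with a PC1 score of -86.7 against -11.1 to -8.97 for the other col1 libraries, and results are given without it where that matters. The 6 mesenchymal markers summed to between 24903 and 42968 CPM (counts scaled to library size) and moved with the groups, between 24903 and 25798 on col1, 34724 and 42968 with ACLP, and 31680 and 37219 with SB431542 as well. Col1a1 and Col1a2 carried the sum, while Pdgfra was at a mean of 420 CPM without ACLP and 248 CPM with it, and their part in the results was not tested. The endothelial, leukocyte and epithelial marker lists of 4 genes each stayed at or under 10 CPM in sum in every library, with Pecam1 and Cdh5 under 1 CPM, Adgre1 and Cd3e at 0, and Epcam at 0 in all libraries. Tek, Cd68 and Cdh1 carried these sums. Tek was at 6.45 CPM on col1, 8.87 with ACLP and 4.9 with SB431542 as well, and fell between the 2 ACLP groups (log2 fold change -0.86, adjusted p = 0.0116 by edgeR). Cd68 was at 9.47, 6.73 and 8.05 CPM and fell in col1-ACLP against col1 (-0.49, adjusted p = 0.0284), while Cdh1 did not pass in any comparison, and the part of these markers in the results was not tested. Of the 4 skeletal muscle lineage markers, Myod1, Myog and Myf5 were at 0 in all libraries and Ckm reached 0.0709 CPM in 1. In bulk RNA, fewer cells of a kind and less RNA per cell cannot be told apart.

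Compared per length, as FPKM (reads scaled to library depth and gene length, computed from the counts and the deposited gene lengths), the same 6 genes led in the same order in all 3 groups. On col1, Acta2 was at 229 ± 13.2 FPKM (SD, n = 4 here and below) and Cnn2, a calponin of non-muscle cells, at 157 ± 5.55. Tpm1 followed at 80.7 ± 3.29 and Tpm2 at 44.5 ± 2.01 FPKM. Then came Myl9, a regulatory light chain, at 7.91 ± 0.747 and Actg2, the enteric smooth muscle actin, at 1.24 ± 0.648 FPKM. These 6 genes did not overlap with their neighbours in any library of the group. Cnn1 (0.0666 to 0.484), Acta1 (0 to 0.378), Myh11 (0.112 to 0.179) and Tagln (0 to 0.199 FPKM) overlapped each other and have no order on col1. With ACLP, Acta1 at 0.504 to 1.36 FPKM stood above the other 3, and with SB431542 its lowest library (0.297) was again under the highest of Myh11 (0.327). Among the 16465 tested genes, the mean FPKM of Acta2 ranked at place 119 on collagen alone, 40 with ACLP and 46 with ACLP and SB431542. Tpm2 ranked at 935, 2057 and 1517. Acta2, Cnn2, Tpm1 and Tpm2 were abundant transcripts in these cells, and Myh11 and Cnn1 were at most at 0.484 FPKM in any library. Of the other markers of differentiated smooth muscle, Smtn was at 14.9 FPKM and Lmod1 at 2.17 FPKM on col1, and Myocd was at 0.

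**Figure D2:**
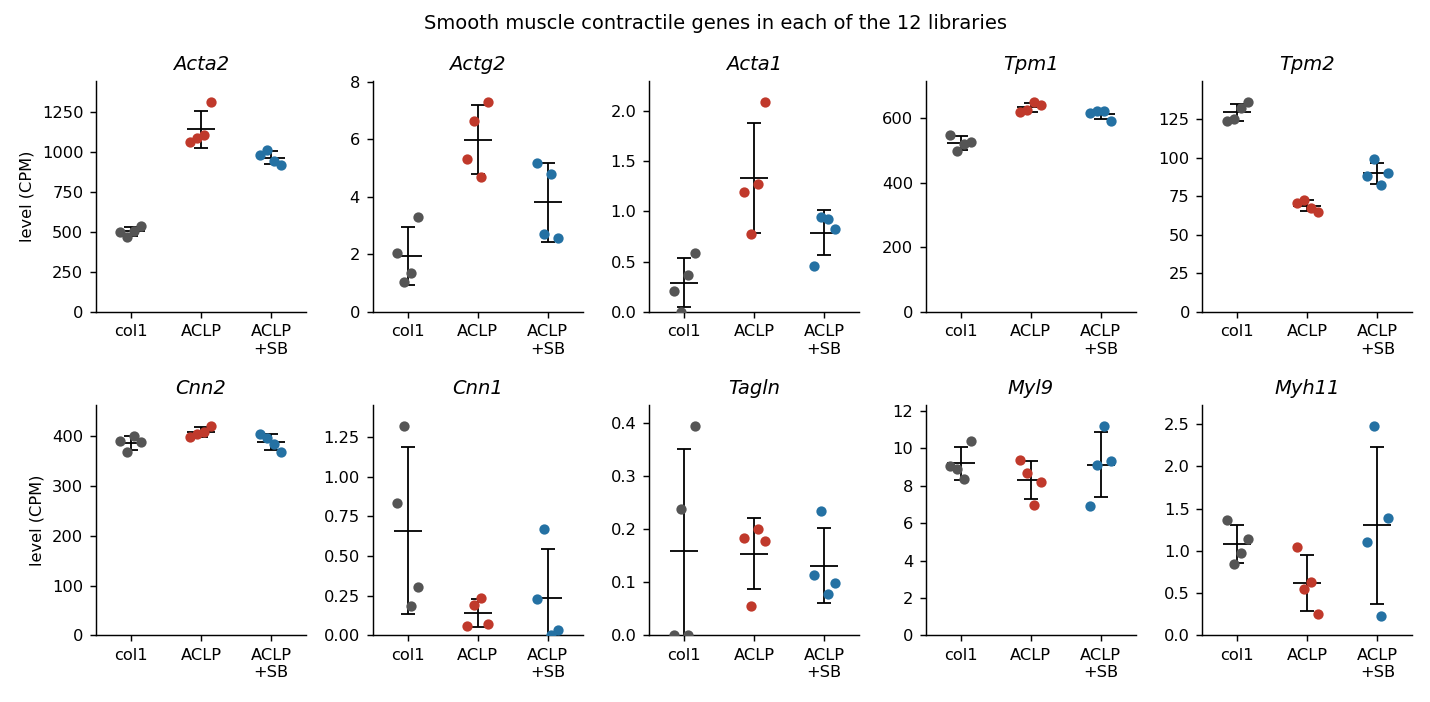
CPM of each of the 10 genes in each library, 1 panel per gene with its own linear y axis from 0, and col1, col1-ACLP and col1-ACLP+SB on the x axis. Points are libraries and bars the mean and SD of 4. For Acta2 the col1 libraries (467 to 538 CPM) lie under all others, for Tpm2 the order is turned, and for Cnn1, Tagln, Myl9 and Myh11 the groups overlap.

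The first comparison asked which of these genes change when the collagen carries ACLP. Counts of the smooth muscle and skeletal actin genes were higher in cells on ACLP-containing collagen, and Acta2 carried nearly all of them. The Acta1 call rested on few counts and did not hold in every alternative, and reads shared between these genes were not told apart. In col1-ACLP against col1, 4 of the 9 tested genes rose (Acta2, Acta1, Actg2 and Tpm1) and 1 fell (Tpm2) at an adjusted p under 0.05 in the quasi-likelihood test of edgeR, with p-values adjusted by Benjamini and Hochberg's method. Over all 16465 genes, 9.52% rose and 8.41% fell, 17.9% in all. With the size threshold of the study's methods, a log2 fold change beyond 0.58, 3 rose and 1 fell, against 2.61% and 2.36% of all genes (4.97% in all). Every library of one group lay beyond every library of the other for 4 genes in the higher and 1 in the lower direction, against 10.9% and 10.3% of all genes (21.2% in all). The median log2 fold change of the 9 genes was 0.08, against -0.01 over all genes.

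Acta2 (ENSMUSG00000035783, chr19:34218490-34232990, minus strand), which encodes the vascular smooth muscle actin, was at 499, 467, 507 and 538 CPM on col1. On col1-ACLP it was at 1058, 1086, 1105 and 1310 CPM. With SB431542 it was at 978, 1008, 943 and 917 CPM. The 3 groups did not overlap, with every SB431542 library between the highest col1 and the lowest col1-ACLP library. The log2 fold change of col1-ACLP over col1 was 1.18 (SE 0.0565, 95% interval 1.06 to 1.3, adjusted p = 5.57e-14 by edgeR), a 2.27-fold rise. It held without col1 replicate 2, at 1.15.

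Actg2 (ENSMUSG00000059430, chr6:83489887-83513247, minus strand) was a sparse transcript, at 2.06, 1.03, 1.34 and 3.3 CPM on col1. On col1-ACLP it was at 5.32, 6.63, 4.68 and 7.3 CPM, above every col1 library, from 140 to 240 counts against 39 to 142. The libraries with SB431542 were at 5.18, 2.72, 4.8 and 2.55 CPM, 2 of them under the highest col1 library. Against col1, the gene rose by a log2 fold change of 1.62 on col1-ACLP (SE 0.302, 95% interval 1 to 2.24, adjusted p = 2.85e-04 by edgeR), or 3.07-fold, and by 1.41 without col1 replicate 2.

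Acta1 (ENSMUSG00000031972, chr8:124618508-124621490, minus strand), the actin of skeletal muscle, rested on few counts. It had 8, 0, 12 and 25 counts on col1 (0 to 0.581 CPM), where the library with 0 counts allows up to 0.0794 CPM at 3 counts. On col1-ACLP it had 39, 28, 38 and 59 counts (0.774 to 2.09 CPM), above every col1 library. The log2 fold change was 2.18 with a wide 95% interval of 0.8 to 3.56 (SE 0.668, adjusted p = 0.0229 by edgeR). This call was lost without col1 replicate 1 (2.05, adjusted p = 0.0592) and without col1-ACLP replicate 4 (1.88, adjusted p = 0.0944). It held without col1 replicate 2, at 1.77 and an adjusted p of 0.0256, and without col1 replicate 4, at 2.8 and an adjusted p of 0.011. With limma-voom the estimate was 2.91 (adjusted p = 0.0172).

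The 3 muscle actins share sequence: the Acta2 transcript aligned to that of Acta1 at 85.4% identity over 1133 bases and to Actg2 at 84.2% over 1143 bases. How reads that map to several places were counted was not given in the sources used here. Actg2 counts were 0.221% to 0.613% of the Acta2 count of the same library in the col1 group, 0.423% to 0.611% with ACLP and 0.27% to 0.53% with ACLP and SB431542, and the 3 ranges overlap. For Acta1 the percentages were 0 to 0.108 in the col1 group, 0.0713 to 0.16 with ACLP and 0.0466 to 0.0982 with both. The part of Acta2 reads in the counts of the other two was not tested.

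The tropomyosins moved in opposite directions. Tpm1 (ENSMUSG00000032366, chr9:66929872-66956688, minus strand), which is spliced into muscle and non-muscle forms that a gene count does not separate, was at 549, 497, 521 and 525 CPM on col1. It was at 620, 626, 650 and 640 CPM on col1-ACLP and at 615, 623, 622 and 590 CPM with SB431542. All 8 libraries with ACLP lay above the 4 without it, and the 2 ACLP groups overlapped. The rise on col1-ACLP was small but larger than the replicate spread, with a log2 fold change of 0.28 (SE 0.041, 95% interval 0.19 to 0.36, adjusted p = 1.45e-05 by edgeR), or 21.2%, and 0.25 without col1 replicate 2.

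Tpm2 (ENSMUSG00000028464, chr4:43514711-43523765, minus strand), the β-tropomyosin gene, whose splice forms a gene count does not separate either, was at 124, 125, 132 and 136 CPM on col1. It was at 70.2, 72.7, 67.2 and 64.8 CPM on col1-ACLP. With SB431542 it was at 87.9, 98.8, 82.2 and 90.1 CPM. The groups did not overlap, and the order was the reverse of that for Acta2, with the SB431542 libraries again in between. In col1-ACLP against col1, Tpm2 fell by 0.91 on the log2 scale (SE 0.0604, 95% interval -1.04 to -0.79, adjusted p = 1.90e-11 by edgeR), to 0.532 of its level. Without col1 replicate 2 the value was -0.93.

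The 2 calponin genes did not pass the test in any comparison. Cnn2 (ENSMUSG00000004665, chr10:79824418-79831896, plus strand) was at 387 ± 13.7 CPM on collagen alone, 408 ± 9.24 with ACLP and 388 ± 15.6 with ACLP and SB431542. Its 95% intervals were narrow, with a log2 difference between -0.014 and 0.17 for ACLP (adjusted p = 0.268 by edgeR) and between -0.086 and 0.094 for ACLP with SB431542, each against col1. Cnn1 (ENSMUSG00000001349, chr9:22010512-22020926, plus strand) had 32, 50, 6 and 13 counts on col1, 2, 7, 7 and 2 on col1-ACLP and 8, 20, 0 and 1 with SB431542. The range of counts was widest on col1, and the groups overlapped in CPM. Its estimate for col1-ACLP against col1 was -2.21 with a 95% interval from -4.24 to -0.18, an unadjusted p of 0.0343 and an adjusted p of 0.135 by edgeR. Without col1 replicate 2, which had the highest count, it was -1.63 (adjusted p = 0.366).

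Tagln (ENSMUSG00000032085, chr9:45840917-45847356, minus strand), which encodes transgelin or SM22α and is a widely used early smooth muscle marker, had 0, 9, 0 and 17 counts on col1. It had 6, 2, 6 and 5 counts on col1-ACLP and 4, 7, 4 and 3 with SB431542. The highest library was thus at 0.395 CPM, and the col1 libraries with 0 counts allow up to 0.0783 and 0.0911 CPM. In the GENCODE vM39 annotation, 66.7% of the exon bases of Tagln (1364 of 2044) lie in exons of genes on the other strand, Gm48529 and Pcsk7, while 680 bases are its own. Gm48529 itself had 2 to 30 counts per library. Whether reads on shared bases were dropped from the table was not tested, so the low counts of Tagln limit what the table shows of it. In the same annotation, Cnn1 shares 35.1% of its exon bases with Elof1, and Acta2 shares 9.33% with Stambpl1. By the gene positions given in the count table, however, neither Cnn1 nor Acta2 overlaps another gene.

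The genes of the myosin motor did not pass the test either. Myl9 (ENSMUSG00000067818, chr2:156617340-156623578, plus strand) was at 9.06, 8.9, 8.38 and 10.4 CPM on col1, and the col1-ACLP libraries (6.95 to 9.38) and those with SB431542 (6.92 to 11.2) overlapped them. Its log2 difference on col1-ACLP lay between -0.46 and 0.16 (adjusted p = 0.589 by edgeR). Myh11 (ENSMUSG00000018830, chr16:14012399-14109236, minus strand) had 32 to 52 counts on col1, 7 to 34 on col1-ACLP and 12 to 74 with SB431542. Its estimates had 95% intervals from -1.94 to 0.36 with ACLP and from -0.86 to 1.38 with ACLP and SB431542, each against col1, so changes of these sizes were not resolved in these libraries.

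The next comparison set cells with ACLP and SB431542 against collagen alone. It changes ACLP and the inhibitor together, so it does not give the effect of ACLP under ALK5 inhibition by itself. With ACLP and SB431542 against collagen alone, 3 genes rose (Acta2, Actg2 and Tpm1) and Tpm2 fell, where 4.6% of all genes rose and 4.54% fell (9.13% in all). Beyond 0.58, 2 rose and 0 fell in edgeR and in DESeq2, against 1.27% and 1.01% of all genes in edgeR (2.28% in all). At an unadjusted p under 0.05 by edgeR, 4 genes were higher, with Acta1 added to the 3 called, and 1 was lower (Tpm2). Of all genes, 10.3% were higher and 9.57% lower by that rule. No overlap of libraries was seen for 2 genes in the higher and 1 in the lower direction, against 6.7% and 6.32% of all genes (13% in all). The median log2 fold change was 0.23, against 0.0046 over all genes.

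Acta2 was 1.91-fold higher than on col1 (log2 fold change 0.94, SE 0.0562, 95% interval 0.82 to 1.05, adjusted p = 1.07e-11 by edgeR). Tpm1 was higher by 0.23 (SE 0.041, 95% interval 0.14 to 0.31, adjusted p = 3.52e-04) and Tpm2 fell by 0.53 (SE 0.0597, 95% interval -0.65 to -0.4, adjusted p = 5.01e-07). Actg2 passed the threshold narrowly, with a log2 fold change of 0.98 (SE 0.301, 95% interval 0.36 to 1.6, adjusted p = 0.0398) and overlapping groups. The Actg2 call was lost in 8 of 20 alternatives, and without col1 replicate 2 it was 0.77 with an adjusted p of 0.121. Acta1, at 16, 28, 48 and 25 counts, had an estimate of 1.43 with a 95% interval from 0.061 to 2.8 and did not pass (adjusted p = 0.222).

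**Figure D3:**
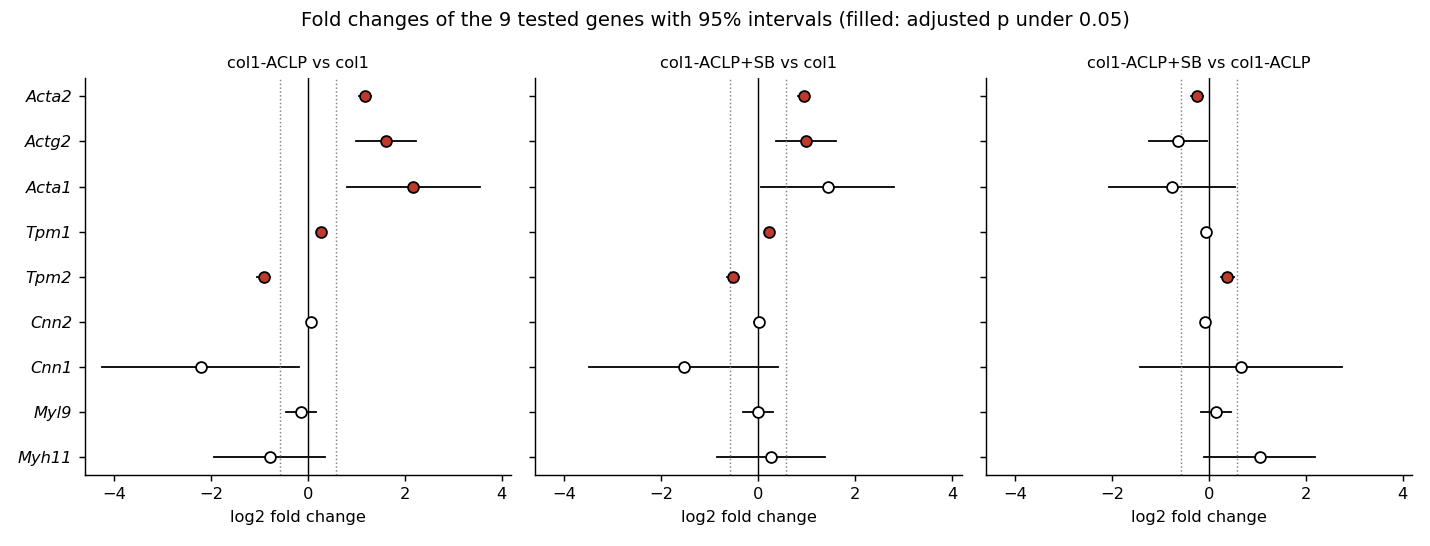
Log2 fold changes of the 9 tested genes with 95% intervals in the 3 comparisons, filled where the adjusted p of edgeR's test is under 0.05, with dotted lines at 0.58 in either direction. Acta2 and Tpm2 are filled in all 3 panels, with values of 1.18, 0.94 and -0.25 for Acta2 and -0.91, -0.53 and 0.38 for Tpm2, while Cnn1 and Myh11 have the long lines of genes with few counts.

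The effect of the inhibitor in cells on ACLP was given by col1-ACLP+SB against col1-ACLP. Here 1 of the 9 genes rose (Tpm2) and 1 fell (Acta2), where 0.571% of all genes rose and 0.905% fell (1.48% in all). Beyond 0.58, 0 of the 9 were called in edgeR and in DESeq2, against 0.128% of all genes in edgeR (0.085% higher and 0.0425% lower). At an unadjusted p under 0.05 there were 3, the third being Actg2, against 6.19% of all genes higher and 6.63% lower. For 1 gene in each direction the libraries did not overlap, against 3.65% of all genes higher and 4.52% lower (8.17% in all). The median log2 fold change was -0.05, against 0.0049 over all genes.

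With the inhibitor, Acta2 fell by 0.25 on the log2 scale (SE 0.0557, 95% interval -0.36 to -0.13, adjusted p = 0.0226 by edgeR), to 0.844 of its level on col1-ACLP. This call was lost without col1-ACLP replicate 4 (-0.17, adjusted p = 0.0864) and without col1-ACLP+SB replicate 4 (-0.22, adjusted p = 0.0878). Tpm2 was higher by 0.38 (SE 0.0605, 95% interval 0.26 to 0.51, adjusted p = 0.00114), or 30.4%, and kept its side of the threshold when any library was left out. Actg2 had an estimate of -0.64 (95% interval -1.24 to -0.04, adjusted p = 0.343), Acta1 of -0.75 (-2.05 to 0.55, adjusted p = 0.712) and Tpm1 of -0.05 (-0.13 to 0.035, adjusted p = 0.705). Myh11 had an estimate of 1.05 in the other direction, with an interval from -0.1 to 2.2. All 3 comparisons share libraries in pairs, so their values are given side by side and are not independent of each other.

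Within its family, Acta2 took a larger share of the actin transcripts on ACLP. Of the length-scaled counts of the 6 actin genes, Acta2 held 16.3% ± 0.704 in the col1 group, 31.5% ± 1.07 with ACLP and 27.7% ± 0.918 with ACLP and SB431542. The share of the cytoplasmic β-actin gene Actb was 37.7%, 31.5% and 33.6%, and that of the γ-actin gene Actg1 45.9%, 36.8% and 38.5%. Acta1 and Actg2 together stayed under 1% of the actins, and cardiac Actc1 was at 0 in every library. The levels of Actb (log2 difference -0.03, adjusted p = 0.781 by edgeR) and Actg1 (-0.09, adjusted p = 0.186) did not pass the test in col1-ACLP against col1. Scaled by library size alone, which lowered the median of all genes to -0.06, Actg1 was lower by that test (-0.14, adjusted p = 0.0119) and Acta2 was still higher.

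Among the 4 tropomyosin genes, Tpm2 held 20.6% ± 0.981 in the col1 group, 10.4% ± 0.501 with ACLP and 13.9% ± 0.97 with ACLP and SB431542. Tpm1 went from 37.3% to 42.9% and 42.5%. The mainly non-muscle genes Tpm3 and Tpm4 made up the rest. In the calponins, Cnn2 and Cnn3 made up nearly all counts, with Cnn1 at 0.0907% on col1 and 0.0186% on col1-ACLP. Tagln was 0.107% of the transgelins on col1 against 99.3% for Tagln2, with the limit on Tagln counts given above. Myh11 was 0.0908% of the smooth and non-muscle myosin heavy chains on col1, where Myh9 held 85.9%. The regulatory light chains were mostly Myl12a (77.5%), with Myl9 at 18.0% ± 1.1 on col1 and 13.2% ± 1.59 on col1-ACLP. The Myl9 transcript aligned to that of Myl12a at 85.7% identity over 517 bases, and the part of shared reads in these shares was not tested.

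**Figure D4:**
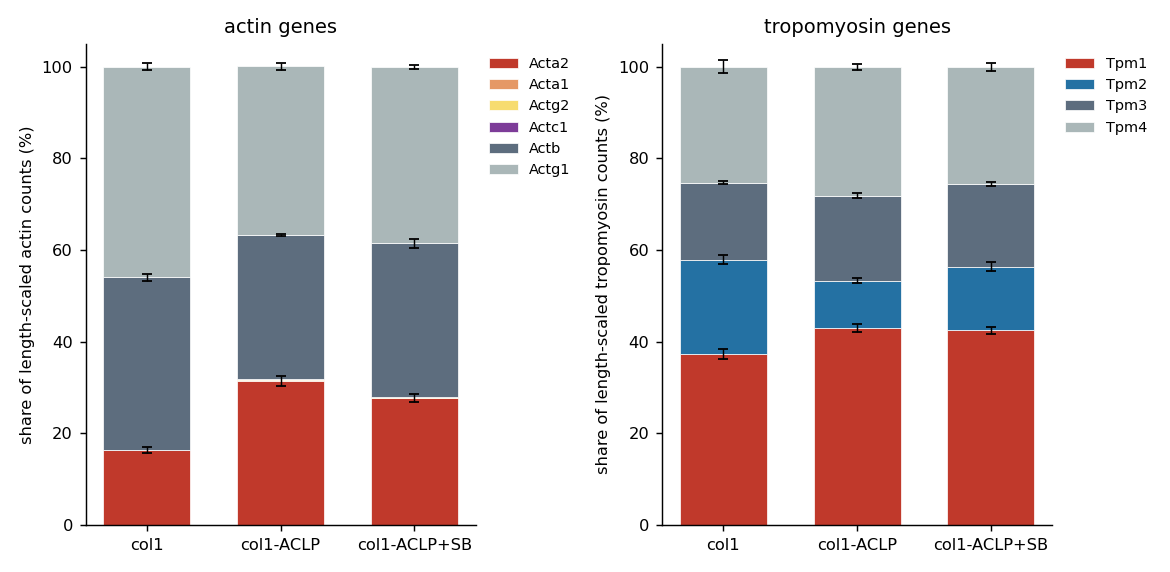
Stacked shares (%) of the length-scaled counts of the 6 actin genes (left) and the 4 tropomyosin genes (right) in each group, as means of 4 libraries with the SD of each gene's share as an error bar at the top of its segment. The Acta2 segment grows from 16.3% on col1 to 31.5% on col1-ACLP, and the Tpm2 segment shrinks from 20.6% to 10.4%.

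Most of the non-muscle relatives of these genes encode proteins of the general actin cytoskeleton, while Tagln3 is best known from neurons and was under 1 CPM on average in each group. In col1-ACLP against col1, 6 of 14 rose and 0 fell, with a median log2 fold change of 0.19, where 9.52% of all genes tested were called higher and 8.41% lower. Those that rose were the light chain genes Myl12a (0.38, adjusted p = 7.19e-06 by edgeR) and Myl6 (0.16, adjusted p = 0.00534), the non-muscle myosin Myh9 (0.28, adjusted p = 1.25e-04), the tropomyosins Tpm4 (0.23) and Tpm3 (0.22), and Tagln2 (0.23). Cnn3, Tagln3, Myl12b, Myl6b, Myh10 and Myh14 did not pass, beside Actb and Actg1. DESeq2 and limma-voom also called 0 lower, while with library size alone Actg1 and Myh10 (-0.17, adjusted p = 0.0203) were lower and Myl6 no longer passed (0.11, adjusted p = 0.0543). With the main scaling, 1 of the 14 was lower at an unadjusted p under 0.05 (Myh10, -0.12, adjusted p = 0.131), as were 14% of all genes tested. Against col1, the cells with ACLP and SB431542 had 3 of the 14 higher (Tpm3, Myh9 and Myl12a, with Tpm3 lost under library size alone at an adjusted p of 0.0691; 4.6% of all genes tested were called higher) and 0 lower, with 0 lower by DESeq2 and limma-voom and 1 lower at an unadjusted p under 0.05 (9.57% of all genes tested). Between the 2 ACLP groups, edgeR called 0 higher and 0 lower, DESeq2 and limma-voom each called 1 lower, and 1 was higher and 2 lower at an unadjusted p under 0.05. Among all genes tested in that comparison, edgeR called 0.571% higher and 0.905% lower, DESeq2 1.42% and 2.03%, limma-voom 0.498% and 1.08%, and 6.19% and 6.63% had an unadjusted p under 0.05. In col1-ACLP against col1, Tpm2 was thus the one tropomyosin gene of the 4 that fell while the other three rose, with RLE factors and library size alone too.

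**Figure D5:**
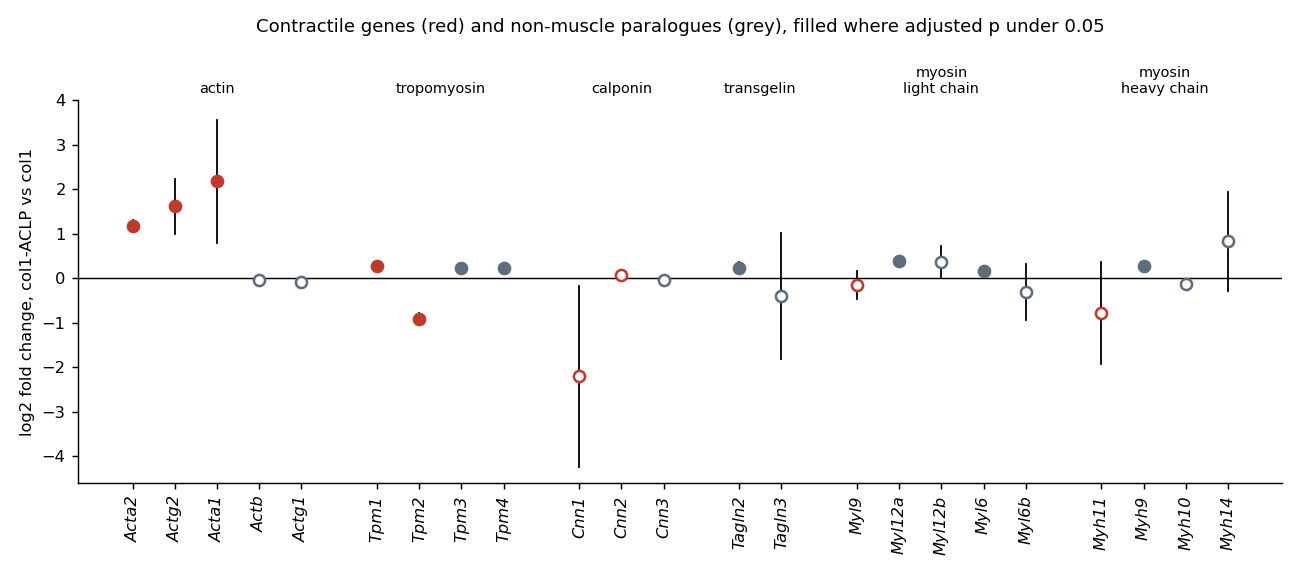
Log2 fold change of col1-ACLP over col1 with 95% intervals for the tested contractile genes (red) and their non-muscle relatives (grey), arranged by protein family and filled where the adjusted p is under 0.05. The 3 muscle actins lie above 1 while Actb and Actg1 lie at -0.03 and -0.09, and Tpm2 at -0.91 lies under the other 3 tropomyosin genes at 0.22 to 0.28.

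Among the genes of SRF, its cofactors and other known regulators of smooth muscle genes, 1 was called. Of 10 regulators, 9 were tested, and in col1-ACLP against col1 only the ternary complex factor Elk3 passed, higher by 0.23 (adjusted p = 0.00987 by edgeR). That share is near the 9.52% of all genes tested that were called higher. Srf was at 82.6 CPM on collagen alone, 76.6 with ACLP and 75.1 with ACLP and SB431542 and did not pass (adjusted p = 0.314 in col1-ACLP against col1). The cofactor genes Mrtfa (adjusted p = 0.443) and Mrtfb (adjusted p = 0.188) did not pass either, nor did Elk1, Elk4, Klf4, Klf5 and Tead1. With the inhibitor and against col1, edgeR and limma-voom called 0 of the 9 and DESeq2 called 1, while Elk3 and Elk4 were higher at an unadjusted p under 0.05. Of all genes tested there, edgeR called 4.6% higher, limma-voom 4.91% and DESeq2 5.5%, and 10.3% were higher at an unadjusted p under 0.05. In the same comparison, libraries did not overlap for 2 regulators in the lower direction (Srf and Tead1), against 6.32% of all genes. In the higher direction there were 0, against 6.7% of all genes. Between the 2 ACLP groups all 3 tools called 0, and Tead1 was lower at an unadjusted p of 0.0103. Myocd, the gene of myocardin, was at 0 in all 12 libraries. RNA levels do not show where the MRTF proteins were in the cell.

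Of 35 genes of the contractile apparatus, dense bodies and membrane in smooth muscle, 29 were tested, and in col1-ACLP against col1 2 rose and 5 fell, with a median log2 fold change of -0.09. Among all genes tested 9.52% were called higher and 8.41% lower, so calls in both directions are not particular to these genes. DESeq2 called 8 of the 29 lower, limma-voom 7, and library size alone added Pgm5, Ppp1r12b and Aoc3 to the 5 (adjusted p = 0.00995, 0.0212 and 0.0219 by edgeR), while 2 were higher under each. The 3 added genes were named after their values were seen. The share of all genes called lower was 9.63% with DESeq2, 8.14% with limma-voom and 11.3% with library size alone. Cald1, which encodes the actin-binding caldesmon, rose by 0.33 (1154 to 1452 CPM, adjusted p = 9.37e-08 by edgeR), and Pdlim7, a PDZ and LIM protein of actin filaments, by 0.4 (adjusted p = 4.65e-05). The myosin light chain kinase gene Mylk fell by 0.65 (26.7 to 17.0 CPM, adjusted p = 3.05e-05), Tns1 by 0.54 (adjusted p = 2.61e-06), Csrp2 by 0.53 (adjusted p = 0.00175) and Smtn, the gene of smoothelin, by 0.49 (adjusted p = 3.20e-05). The fifth to fall was Fhl2 (-0.36), named here after its value was seen. In the cells with ACLP and SB431542 against col1, 2 rose (Cald1 by 0.18 and Pdlim7 by 0.4) and 4 fell, among them Smtn by 0.31 and Tns1 by 0.29, with Aoc3 and Pgm5 named after their values were seen, beside 4.6% of all genes tested called higher and 4.54% lower. DESeq2 and limma-voom each called 6 of the 29 lower there, and library size alone added Ppp1r12b (adjusted p = 0.045 by edgeR) and Csrp2 (adjusted p = 0.0423), where 5.55%, 5.07% and 5.43% of all genes were called lower. Between the 2 ACLP groups, Cald1 fell with the inhibitor by 0.15 (adjusted p = 0.0316, and 0.0743 with library size alone) and 0 rose in edgeR and limma-voom, while DESeq2 called 2 higher (1.42% of all genes). At an unadjusted p under 0.05, 4 were lower (6.63% of all genes) and 3 higher (6.19%), among them Mylk (adjusted p = 0.0734 by edgeR) and Tns1 (adjusted p = 0.0733, and 0.0384 with library size alone). The 5 markers of differentiated smooth muscle (Myh11, Smtn, Lmod1, Myocd and Cnn1) summed to 72.0 to 77.4 CPM on collagen alone, 48.3 to 61.9 with ACLP and 57.4 to 75.0 with ACLP and SB431542, with Smtn carrying most of the sum.

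Genes whose levels over the 12 libraries were most like those of Acta2, by Pearson's r of log2 CPM, were Rab3ip (0.996), Sertad4, Pmepa1, Actn1 and Asns (each 0.991). For Tpm2 they were Cplx2 (0.986), Nbl1 (0.985), Baiap2 (0.982), Sned1 and Tmem44 (each 0.98). Over 12 libraries in 3 groups such values mostly follow the group means, and they are given as a description.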

How the data were processed

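The authors sequenced poly(A) RNA of 12 libraries as paired-end reads, mapped them with HISAT2 2.1.0 to GRCm39 by the study's methods, and deposited a table of unnormalized read counts per gene with gene positions and lengths. The labels list mm10, but the positions in the table are those of GRCm39. The counting tool, its strand setting and its handling of shared reads are not given in the sources used here. The counts were fitted by edgeR 4.0.16 under R 4.3.3 (filterByExpr, TMM factors from 0.966 to 1.02, glmQLFit and glmQLFTest on all 12 libraries with 1 mean per group, Benjamini-Hochberg adjustment over 16465 genes, 40283 dropped). The common dispersion had a square root of 0.153. CPM and FPKM used TMM-scaled totals, log2 CPM a prior count of 2. Reads carry no molecular identifiers, so limits at 0 counts (3 counts) cover counting error only. Shared exon bases were taken from GENCODE vM39 and look-alike transcripts from blastn 2.17.0. Promoter windows are RefSeq's, given on GRCm38 and placed by exact match in GRCm39. DESeq2 1.42.0, limma-voom (limma 3.58.1), RLE factors, library size alone, other filters, pairs of groups, a replicate block and each library left out were tried as alternatives. The procedure was tested on simulated data, where recovery of changed genes was required only at higher levels. That test therefore does not cover recovery for the sparse genes. Genes named are all 10 members, all regulators and non-muscle relatives, the 4 largest rises and falls of the other smooth muscle list in col1-ACLP against col1 among genes at an adjusted p under 0.05, tested striated genes, and the 5 genes most correlated with Acta2 and Tpm2 (Tagln was not tested). The members and lists were chosen with earlier results of these data known.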

Additional observations from a re-analysis of the deposited data

Results flagged for a closer look

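In Tagln, col1-ACLP replicate 2 was at 0.0553 CPM, far from the other 3 libraries of its group at 0.177 to 0.2 CPM, with a gap of 0.84 of the group's range. It rests on 2 counts against 5 or 6. It was 1 of 30 groups of 4 libraries examined for the 10 genes, and chance gives such a gap in about 1 of 20 groups.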

How the results depend on the processing

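The calls for Acta2 and Tpm1 against col1 and for Tpm2 in all 3 comparisons were the same under all 20 alternatives, as was Actg2 in col1-ACLP against col1. With the threshold of 0.58 added, the number of genes called went from 4 to 2 in col1-ACLP+SB against col1 and from 2 to 0 in col1-ACLP+SB against col1-ACLP. With 1 library left out, 4 to 5 genes were called in col1-ACLP against col1, 3 to 4 in col1-ACLP+SB against col1, and 1 to 2 in col1-ACLP+SB against col1-ACLP, the 1 being without col1-ACLP replicate 4 or without col1-ACLP+SB replicate 4. The adjusted p of Actg2 in col1-ACLP+SB against col1 ranged from 0.00378 to 0.154 and was 0.0914 with only those 2 groups fitted. That of Acta1 in col1-ACLP against col1 ranged from 0.00181 to 0.0944. Estimates that changed sign all belonged to genes that never passed. With 1 library left out, estimates ran for Cnn2, Myh11 and Myl9 in col1-ACLP+SB against col1 up to 0.029, up to 0.62 and down to -0.13, and for Cnn1 in col1-ACLP+SB against col1-ACLP up to 1.12. For col1-ACLP+SB against col1, Cnn2 was -0.02 with library size alone, -0.00021 with the 2 groups only, and -0.018, -0.016 and -0.004 without col1 replicate 2, col1-ACLP+SB replicate 1 and replicate 2. Myh11 was -0.45 with limma-voom and -0.26 without col1-ACLP+SB replicate 2, and Myl9 was 0.061 without col1 replicate 4 and 0.11 without col1-ACLP+SB replicate 1. For col1-ACLP+SB against col1-ACLP, Cnn1 was -0.11 with the replicate block, -0.86 with limma-voom and -0.72 without col1-ACLP+SB replicate 2. The causes were not tested. Libraries of equal number did not deviate together (correlations -0.0372 to 0.036), so the replicate numbers were not taken as a pairing, and the replicate block left 5, 4 and 2 genes called in the 3 comparisons. The fit of 2 groups dropped Cnn1 in 2 comparisons.

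Over all genes in col1-ACLP+SB against col1-ACLP, 94 were higher and 149 lower, against 180 and 248 with no filter, 233 and 335 with DESeq2, 61 and 116 with the replicate block, 50 and 104 without col1-ACLP replicate 1, 53 and 109 without replicate 2, 57 and 93 without replicate 3, 32 and 66 without replicate 4, 51 and 113 without col1-ACLP+SB replicate 2, 44 and 76 without its replicate 4, and 157 and 109 with library size alone. In col1-ACLP against col1, 1568 were higher and 1385 lower, and 1159 and 1865 with library size alone. Acta1, Cnn1, Tagln and Myh11 had at most 74 counts in any library, and such low counts limit what these data show of them.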

Other observations

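Genes of striated muscle were mostly silent in these cells, with 10 of 31 at 0 and 20 of 31 under 1 CPM in every library. Of the 12 tested, 2 rose in col1-ACLP against col1 and 0 fell (0 also by DESeq2, limma-voom and at an unadjusted p under 0.05). Among all genes tested 9.52% were called higher. Beyond a log2 fold change of 0.58, 2 of the 12 were higher, against 2.61% of all genes. A count of 2 is too small to set these genes apart. Tnnt2, the cardiac troponin T gene, was at 0.274 CPM on collagen alone, 1.52 with ACLP and 1.09 with ACLP and SB431542, with a log2 fold change of 2.45 with ACLP (adjusted p = 7.86e-04 by edgeR's quasi-likelihood test) and 1.99 with both (adjusted p = 0.00946), each against col1. Tnni1, the slow skeletal troponin I gene, was at 3.0, 5.07 and 5.29 CPM, with log2 fold changes of 0.75 (adjusted p = 0.0324) and 0.81 (adjusted p = 0.0341). For both genes the 8 libraries with ACLP lay above the 4 without it. Myh6, Tnnt1, Tnnt3, Tnnc1, Tnni2, Tnni3, Ttn, Actn3, Mylpf and Myl4 were tested and did not pass in any of the 3 comparisons. Between the 2 ACLP groups, all 3 tools called 0 of the 12, with 1 higher at an unadjusted p under 0.05 (6.19% of all genes).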
